A study of Mus musculus with 24 samples.

Results

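The 8 cholesterol synthesis genes Hmgcs1, Idi1, Fdft1, Sqle, Lss, Cyp51, Insig1 and Srebf2 were followed in mouse skeletal muscle on a high fat and a low fat diet. They were chosen by name: every probe whose gene name in the scanner files is one of these symbols was taken, which gave 15 of the 56605 probes on the array and 8 of the 19937 gene names that could be tested. Total RNA of 24 samples, 8 mice per group, was labelled with Cy3 and hybridised to single-colour Agilent oligonucleotide arrays. HFD_O3 mice received the high fat diet and belonged to the omega 3 lineage. HFD_Cont mice received the high fat diet and belonged to the control lineage. STD_Cont mice, also of the control lineage, received the low fat control diet. HFD_O3 and HFD_Cont therefore share the diet, HFD_Cont and STD_Cont share the lineage, and HFD_O3 and STD_Cont differ in both. Which muscle was taken, the sex and age of the mice, how long the diets lasted and how the omega 3 lineage differs from the control lineage are details the sources used here do not give.

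Cholesterol is built from acetyl-CoA through mevalonate, isoprenoids, squalene and lanosterol by a chain of enzymes that sit mostly in the endoplasmic reticulum. The transcription factor SREBP2, encoded by Srebf2, switches on nearly all genes of the chain when membrane sterol is low: the escort protein SCAP carries it to the Golgi, where it is cut into its active form. When sterol is plentiful, INSIG proteins hold SCAP back, and since Insig1 is itself an SREBP target, its mRNA is often used as a readout of the loop. Muscle makes part of its own cholesterol, and the same chain supplies isoprenoids for ubiquinone and for protein prenylation.

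SREBP2 binds its targets close to the start of transcription, at sterol regulatory elements that usually lie near CCAAT and GC boxes, so these stretches are shown for 3 members. RefSeq promoter windows on GRCm38.p6 were at hand for 6 of the 8 members, and the 250 bases before the start of Hmgcs1 (chr13:119690101-119690350, plus strand), Idi1 (chr13:8885356-8885605, plus strand) and Insig1 (chr5:28071162-28071411, plus strand) read, 5′ to 3′ in the direction of the gene, as follows. Capitals mark matches to the sterol element TCACNCCAC and to the CCAAT box on either strand (ATTGG where it lies on the other strand).
Hmgcs1: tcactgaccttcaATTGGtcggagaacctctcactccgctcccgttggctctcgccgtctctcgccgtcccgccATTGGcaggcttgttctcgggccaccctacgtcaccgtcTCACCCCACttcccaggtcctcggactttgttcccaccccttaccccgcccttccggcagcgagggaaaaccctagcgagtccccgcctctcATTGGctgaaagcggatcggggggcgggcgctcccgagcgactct
Idi1: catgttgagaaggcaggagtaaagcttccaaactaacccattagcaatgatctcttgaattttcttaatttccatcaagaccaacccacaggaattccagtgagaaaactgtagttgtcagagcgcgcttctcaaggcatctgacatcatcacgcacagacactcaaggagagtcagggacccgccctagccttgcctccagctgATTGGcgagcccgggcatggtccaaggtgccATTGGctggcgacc
Insig1: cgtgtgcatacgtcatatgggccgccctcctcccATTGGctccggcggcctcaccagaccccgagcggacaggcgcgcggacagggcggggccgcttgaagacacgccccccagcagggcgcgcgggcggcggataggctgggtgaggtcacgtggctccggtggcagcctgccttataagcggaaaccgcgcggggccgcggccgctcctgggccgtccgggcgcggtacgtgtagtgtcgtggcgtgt
The letters TCACNCCAC occurred in the window of 1 of the 6 members, Hmgcs1, 137 bases before the start, and in 1.05% of all 32851 windows of the same length. A CCAAT box was present in 6 of the 6 windows, against 33.9% of all windows. The GC box GGGCGG, searched on both strands as well, was also present in 6 of 6, against 32.7% of all windows. The sterol element and the CCAAT matches do not overlap in Hmgcs1. These matches describe the letters of the windows only.

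The expression level of a gene is given below as the log2 of its processed spot signal over the 75th percentile of its array, so that 0 is the level of that percentile and differences between groups are log2 changes. Levels of different genes come from different probes and are not comparable with each other. A probe was kept where 1 group or more had at least 6 of its 8 arrays well above background. Of the 15 probes, 11 were kept, and 9 were well above background on all 24 arrays. The 4 dim probes were 1 each of Hmgcs1, Sqle, Lss and Cyp51. All 8 genes kept at least 1 probe, and Fdft1, Lss and Srebf2 kept 2 each, of which the brighter stood for the gene. The 10 skeletal muscle markers in the marker list, among them the myosin heavy chains and creatine kinase, were measured on all 24 arrays. On each array 52.0 to 60.7% of the spots were well above background, and 0 were saturated. The arrays lay on 3 slides of 8, and each group was present on each slide, but the groups were spread unevenly over the array rows within the slides.

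None of the 8 members passed the test in any of the 3 comparisons, by limma with Benjamini-Hochberg adjustment over all 19937 names at a threshold of 0.05. For HFD_Cont against STD_Cont, 0 of 8 members were called, against 2.91% of all names (581 names, 286 higher and 295 lower). For HFD_O3 against HFD_Cont, 0 of 8 were called, against 0% of all names. For HFD_O3 against STD_Cont, 0 of 8 were called, against 0.597% of all names (119 names, 81 higher and 38 lower). At an unadjusted p under 0.05, 3 members differed between HFD_Cont and STD_Cont (16.6% of all names), 0 between HFD_O3 and HFD_Cont (7.09%) and 1 between HFD_O3 and STD_Cont (11.2%). In each comparison 4 members had a higher mean and 4 a lower one. The arrays of the 2 groups overlapped for every member, and the share over all names is not given here. The median log2 change of the members for HFD_Cont against STD_Cont was −0.05, and its median size, sign aside, was 0.14, against 0.00 and 0.09 over all names. For HFD_O3 against HFD_Cont the members had a median of 0.01 and a median size of 0.07, against −0.01 and 0.07 over all names. Between HFD_O3 and STD_Cont these were 0.00 and 0.10, against −0.02 and 0.08 over all names. The 3 comparisons share groups of arrays, so their values for a gene are not independent of each other. In bulk tissue, fewer cells of a type and less RNA per cell cannot be told apart.

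**Figure D1:**
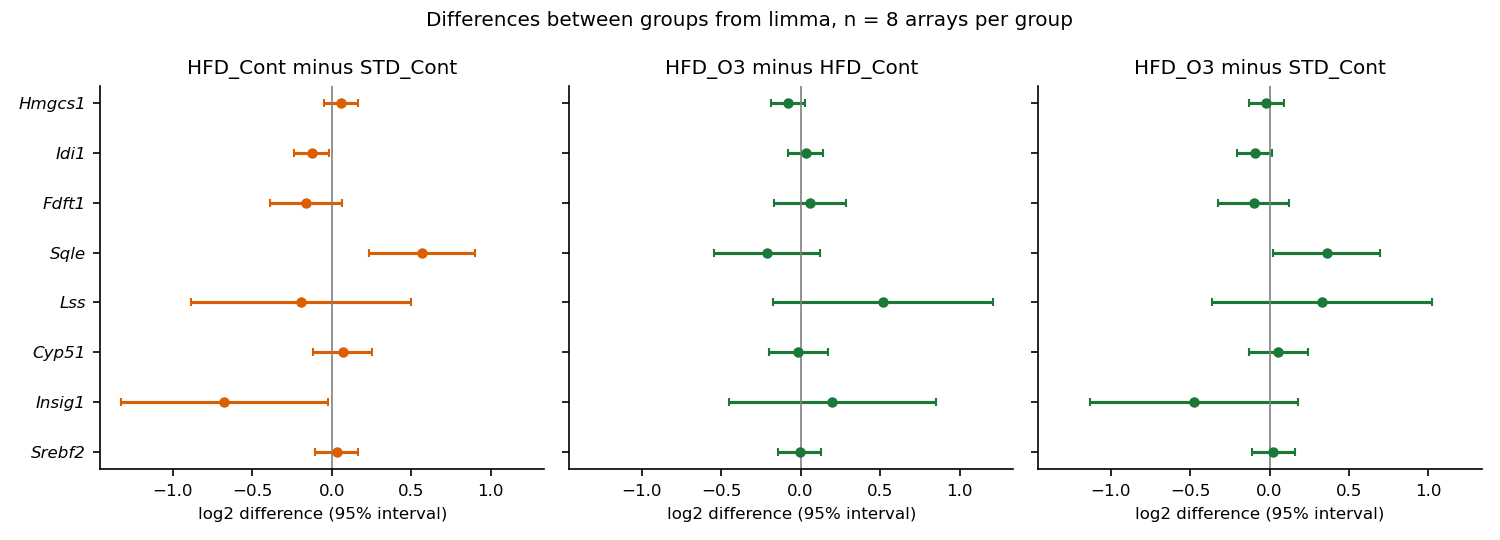
Log2 difference of each of the 8 cholesterol synthesis genes (rows) in the 3 comparisons (panels), with the limma estimate as a point and its 95% interval as a bar, from 8 arrays per group. For HFD_Cont minus STD_Cont the intervals of Sqle (0.24 to 0.90), Idi1 (−0.23 to −0.02) and Insig1 (−1.33 to −0.02) leave out 0, and those of Lss and Insig1 are the widest in each panel.

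Sqle encodes squalene epoxidase, the oxygen-dependent enzyme that acts on squalene and is one of the controlled steps of the chain. Its level was −2.73, −2.40 and −2.04 (lowest, median, highest) in HFD_O3 muscle, −2.73, −2.25 and −1.70 in HFD_Cont muscle, and −3.65, −2.65 and −2.43 in STD_Cont muscle. In HFD_Cont, 7 of 8 arrays lay above the STD_Cont median, and the lowest array of all was STD_Cont 3. Between HFD_Cont and STD_Cont the log2 difference was 0.57 ± 0.16 (SE), a 1.48-fold higher mean, with a 95% interval of 0.24 to 0.90 (limma adjusted p = 0.0558). It was the only member near the threshold in the reported fit and it missed it. With slide as a block the limma difference was 0.55, and it was 0.29, 0.84 and 0.52 within slides 1, 2 and 3. When slide and array row together formed the block, it was 0.42 (limma adjusted p = 0.358). With normexp background correction it was 0.20 (limma adjusted p = 0.350), and it was 0.34 in the deposited value table (limma adjusted p = 0.0497). Without STD_Cont 3 it was 0.45 (limma adjusted p = 0.102). It passed the threshold in 6 of the 21 other settings that gave a value, with the lowest limma adjusted p, 0.0175, when a Schwann cell score was a covariate. Leaving out 1 array at a time, it passed in 4 of 24 fits, those without HFD_O3 1, HFD_O3 7, HFD_Cont 6 or STD_Cont 2.
Between HFD_O3 and HFD_Cont the Sqle difference was −0.21 ± 0.16, with an interval of −0.55 to 0.12 (limma adjusted p = 0.806). Between HFD_O3 and STD_Cont it was 0.36 ± 0.16, with an interval of 0.02 to 0.69 (limma adjusted p = 0.395), and 6 of 8 HFD_O3 arrays lay above the STD_Cont median. With normexp background correction that difference was 0.13. The Sqle group means ran HFD_Cont, HFD_O3, STD_Cont from high to low, and no neighbouring pair in that order passed the test.

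**Figure D2:**
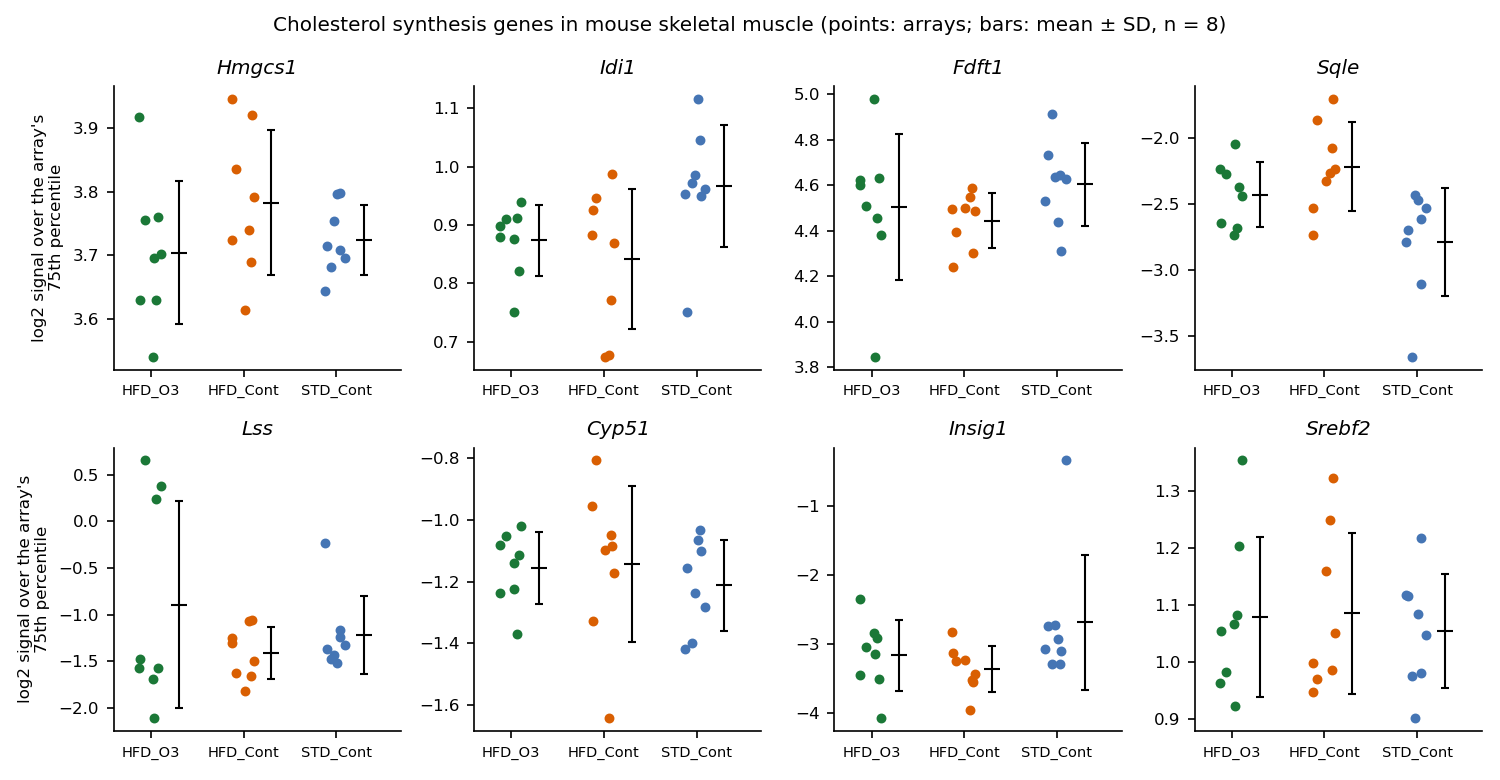
Level of the 8 cholesterol synthesis genes on each array (points), as log2 signal over the 75th percentile of the array, in HFD_O3, HFD_Cont and STD_Cont muscle, with the mean and SD of 8 arrays beside the points. The groups overlap in every panel, Sqle lies lowest in STD_Cont, and single arrays stand apart for Insig1 (STD_Cont 1 at −0.34) and Lss (3 HFD_O3 arrays and STD_Cont 5). The vertical axes differ between genes.

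Hmgcs1 encodes the cytosolic HMG-CoA synthase, which acts early in the chain, before mevalonate. Its level was 3.54, 3.70 and 3.92 (lowest, median, highest) in HFD_O3 muscle, 3.61, 3.77 and 3.95 in HFD_Cont muscle, and 3.64, 3.71 and 3.80 in STD_Cont muscle. The STD_Cont arrays lay within the range of the HFD_Cont arrays. The log2 difference was 0.06 ± 0.05 for HFD_Cont against STD_Cont, with a 95% interval of −0.05 to 0.17 (limma adjusted p = 0.651). For HFD_O3 against HFD_Cont it was −0.08 ± 0.05, with an interval of −0.19 to 0.03 (limma adjusted p = 0.767), and 7 of 8 HFD_O3 arrays lay below the HFD_Cont median. For HFD_O3 against STD_Cont it was −0.02 ± 0.05, with an interval of −0.13 to 0.09.
Idi1 encodes isopentenyl diphosphate isomerase, which supplies the pair of isoprene units that are joined into longer chains. Its level was 0.75, 0.89 and 0.94 in HFD_O3 muscle, 0.67, 0.88 and 0.99 in HFD_Cont muscle, and 0.75, 0.97 and 1.12 in STD_Cont muscle. In HFD_O3, 8 of 8 arrays lay below the STD_Cont median, and in HFD_Cont 7 of 8 did, although the STD_Cont range, set at its low end by STD_Cont 6, overlapped both. The difference was −0.13 ± 0.05 for HFD_Cont against STD_Cont, with an interval of −0.23 to −0.02 (limma adjusted p = 0.223). It was −0.27, −0.04 and −0.07 within slides 1, 2 and 3, and −0.16 without STD_Cont 6 (limma adjusted p = 0.0800). For HFD_O3 against HFD_Cont the Idi1 difference was 0.03 ± 0.05 (limma adjusted p = 0.914), and for HFD_O3 against STD_Cont it was −0.09 ± 0.05, with an interval of −0.20 to 0.02 (limma adjusted p = 0.536).
Fdft1 encodes squalene synthase, the first enzyme committed to sterols. Its level was 3.85, 4.55 and 4.98 in HFD_O3 muscle, 4.24, 4.49 and 4.59 in HFD_Cont muscle, and 4.31, 4.63 and 4.91 in STD_Cont muscle. The lowest and the highest array both belonged to HFD_O3 (HFD_O3 1 and HFD_O3 7), and 8 of 8 HFD_Cont arrays lay below the STD_Cont median. The difference was −0.16 ± 0.11 for HFD_Cont against STD_Cont, with an interval of −0.39 to 0.07 (limma adjusted p = 0.512). It was 0.06 ± 0.11 for HFD_O3 against HFD_Cont (limma adjusted p = 0.923) and −0.10 ± 0.11 for HFD_O3 against STD_Cont (limma adjusted p = 0.804).

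Lss encodes lanosterol synthase, which folds epoxidised squalene into the sterol ring system. Its level was −2.11, −1.52 and 0.65 in HFD_O3 muscle, −1.82, −1.40 and −1.05 in HFD_Cont muscle, and −1.52, −1.34 and −0.23 in STD_Cont muscle. The median of HFD_O3 was the lowest of the 3 while its mean was the highest, because HFD_O3 2, HFD_O3 6 and HFD_O3 8 reached 0.65, 0.38 and 0.24. Together with STD_Cont 5, these 4 arrays were separated by 0.82 log2 units from the other 20, of which the highest was at −1.05. For HFD_O3 against HFD_Cont the difference was 0.52 ± 0.33, with an interval of −0.17 to 1.21 (limma adjusted p = 0.760), and it was 0.30 without HFD_O3 2. For HFD_O3 against STD_Cont it was 0.33 ± 0.33 (limma adjusted p = 0.790), and for HFD_Cont against STD_Cont −0.19 ± 0.33 (limma adjusted p = 0.851). The values of Lss turned on the probe read. The probe that stood for the gene, A_52_P118161, lies at chr10:76019513-76019572 on mm9, plus strand, with position 5957 of its transcript as the array design gives it. The other kept probe, A_55_P2807240, lies upstream of it at chr10:76016592-76016651, position 3036. Their first 30 bases, taken from the deposited scanner files, show that they read different stretches.
A_52_P118161: gctgatcatacacagccaatcacgcgcaca
A_55_P2807240: ggcactccacacatggtacatagacataca
On the upstream probe the 4 arrays that stood apart had levels of −2.65 to −2.14, against −2.62 to −1.66 on the other 20, so they did not stand apart there. The upstream probe gave −0.00 ± 0.13 for HFD_Cont against STD_Cont, 0.11 ± 0.13 for HFD_O3 against HFD_Cont (limma adjusted p = 0.883) and 0.11 ± 0.13 for HFD_O3 against STD_Cont. Across the 24 arrays the deviations of the 2 probes from their group means had a Pearson r of −0.50, against 0.95 for the 2 probes of Fdft1. All 4 arrays that stood apart lay in array row 2 of their slides, and when slide and array row formed the block the first probe gave 0.50 for HFD_O3 against HFD_Cont.

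**Figure D3:**
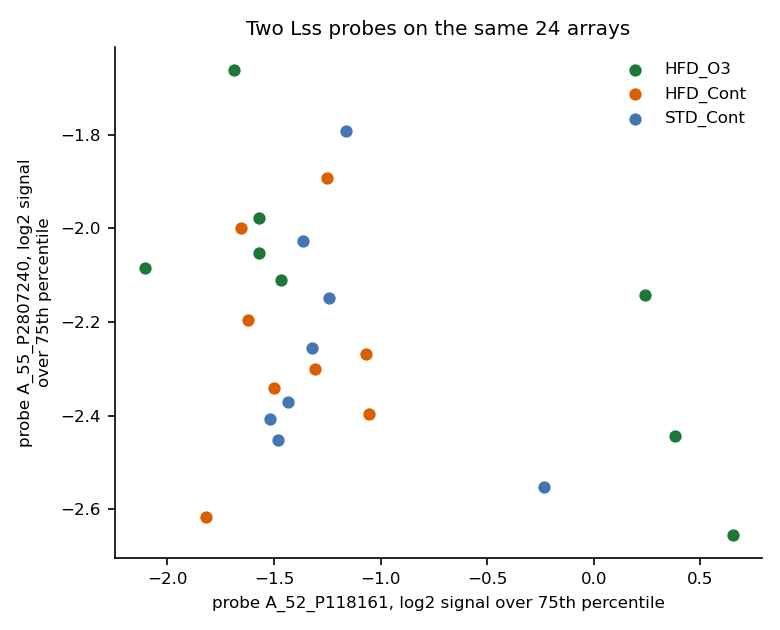
Level on the 2 kept Lss probes over the same 24 arrays (points, coloured by group), as log2 signal over the 75th percentile of the array. HFD_O3 2, HFD_O3 6, HFD_O3 8 and STD_Cont 5 lie at the right, from −0.23 to 0.65 on probe A_52_P118161, while on probe A_55_P2807240 they lie between −2.65 and −2.14.

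Cyp51 encodes lanosterol demethylase, the cytochrome P450 that takes the first step from lanosterol towards cholesterol. Its level was −1.37, −1.13 and −1.02 in HFD_O3 muscle, −1.64, −1.09 and −0.81 in HFD_Cont muscle, and −1.42, −1.20 and −1.03 in STD_Cont muscle. The highest and the lowest array were both of HFD_Cont (HFD_Cont 8 and HFD_Cont 7). The difference was 0.07 ± 0.09 for HFD_Cont against STD_Cont, with an interval of −0.12 to 0.25 (limma adjusted p = 0.777). It was −0.01 ± 0.09 for HFD_O3 against HFD_Cont (interval −0.20 to 0.17) and 0.06 ± 0.09 for HFD_O3 against STD_Cont (interval −0.13 to 0.24).

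Of the 2 regulators, Insig1 encodes the endoplasmic reticulum protein that retains SCAP and SREBP2. Its single probe was dim: it was well above background on 6 HFD_O3, 4 HFD_Cont and 8 STD_Cont arrays. Its level was −4.08, −3.09 and −2.35 in HFD_O3 muscle, −3.95, −3.34 and −2.83 in HFD_Cont muscle, and −3.29, −3.01 and −0.34 in STD_Cont muscle. The highest value belonged to STD_Cont 1, and the next STD_Cont array was at −2.73, inside the HFD_O3 range and above the highest HFD_Cont array. For HFD_Cont against STD_Cont the difference was −0.68 ± 0.32, with an interval of −1.33 to −0.02 (limma adjusted p = 0.281). Without STD_Cont 1 it was −0.34 (limma adjusted p = 0.447), with normexp background correction −0.25 (limma adjusted p = 0.497), and −0.41 in the deposited value table (limma adjusted p = 0.289). It was −1.76, −0.16 and −0.40 within slides 1, 2 and 3, and slide 1 holds STD_Cont 1. In HFD_Cont, 7 of 8 arrays lay below the STD_Cont median.
For HFD_O3 against STD_Cont the Insig1 difference was −0.48 ± 0.32, with an interval of −1.13 to 0.18 (limma adjusted p = 0.625), and −0.14 both without STD_Cont 1 and with normexp background correction. For HFD_O3 against HFD_Cont it was 0.20 ± 0.32, with an interval of −0.45 to 0.85 (limma adjusted p = 0.909). STD_Cont 1 also had a white adipocyte marker score of 1.03, the mean log2 level of 10 adipocyte genes relative to all arrays. That score averaged −0.12 ± 0.73 (SD, n = 8) in STD_Cont. With the score as a covariate the Insig1 difference between HFD_Cont and STD_Cont was −0.85 (limma adjusted p = 0.136).
Srebf2 encodes SREBP2 itself. Its level was 0.92, 1.06 and 1.35 in HFD_O3 muscle, 0.95, 1.02 and 1.32 in HFD_Cont muscle, and 0.90, 1.07 and 1.22 in STD_Cont muscle. The 3 ranges covered nearly the same span. The difference was 0.03 ± 0.07 for HFD_Cont against STD_Cont, with an interval of −0.11 to 0.17 (limma adjusted p = 0.888). It was −0.01 ± 0.07 for HFD_O3 against HFD_Cont (interval −0.14 to 0.13) and 0.02 ± 0.07 for HFD_O3 against STD_Cont (interval −0.11 to 0.16). The dimmer Srebf2 probe, A_51_P377508, gave 0.24 ± 0.15 for HFD_Cont against STD_Cont, 0.18 ± 0.15 for HFD_O3 against HFD_Cont, and 0.41 ± 0.15 for HFD_O3 against STD_Cont, where the limma adjusted p was 0.264 over all kept probes. The deviations of the 2 Srebf2 probes had a Pearson r of 0.09 over the 24 arrays, so the gene's values differ by probe.

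From array to array, the pairwise correlations of the members were centred on 0. Over the 24 arrays, with each value taken as its deviation from the group mean, the 28 pairs of members had a median Pearson r of −0.00, with a lowest of −0.41 and a highest of 0.48, and 14 pairs were positive. By permutation tests with Benjamini-Hochberg adjustment over the 28 pairs, 0 passed, and 2 had an unadjusted p under 0.05. The highest was Hmgcs1 with Idi1, at r = 0.48 and rho = 0.45 (permutation adjusted p = 0.284 and 0.271). It was 0.56 without HFD_O3 4 and HFD_Cont 4, and 0.91, 0.31 and 0.27 within slides 1, 2 and 3. The lowest was Idi1 with Fdft1, at r = −0.41 and rho = −0.56 (permutation adjusted p = 0.284 and 0.155). It was −0.42 without HFD_Cont 1 and STD_Cont 6, and −0.25, −0.60 and −0.56 within slides 1, 2 and 3.

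The remaining enzymes of the chain gave no call in any comparison. Of 15 listed sterol enzymes 13 were measured, and 0 of 13 passed in each of the 3 comparisons. Their median log2 change was 0.01 for HFD_Cont against STD_Cont, −0.09 for HFD_O3 against HFD_Cont and −0.07 for HFD_O3 against STD_Cont. Acat2 had no probe under that name.
Hsd17b7, a late enzyme that reduces a keto group on the sterol ring to a hydroxyl, was closest to the threshold. Its level averaged 1.17 ± 0.18 in HFD_O3 and 1.55 ± 0.30 in STD_Cont (SD, n = 8 each), a difference of −0.38 ± 0.11 (limma adjusted p = 0.113). All HFD_O3 arrays, 8 of 8, lay below the STD_Cont median on that probe, while the other kept Hsd17b7 probe gave −0.0065 (limma adjusted p = 0.994). Mvd, the enzyme that makes isopentenyl diphosphate from mevalonate diphosphate, averaged −0.58 ± 0.16 in HFD_O3 and −0.79 ± 0.25 in STD_Cont (SD, n = 8 each), a difference of 0.22 ± 0.10 (limma adjusted p = 0.445) that was −0.15 within slide 3.

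Genes that control SREBP and the degradation of its targets included 1 call among 11 measured for HFD_Cont against STD_Cont, where 2.91% of all names were called. Mylip, which encodes a ubiquitin ligase switched on by the sterol-sensing LXR receptors, fell in HFD_Cont. Its level was 2.22, 2.48 and 2.68 (lowest, median, highest) in HFD_Cont muscle and 2.60, 2.78 and 3.35 in STD_Cont muscle. The difference was −0.38 ± 0.10 (limma adjusted p = 0.0464), and 8 of 8 HFD_Cont arrays lay below the STD_Cont median. It was −0.39, −0.45 and −0.24 within slides 1, 2 and 3, with limma adjusted p of 0.0571 when slide was a block, and 0.156 when slide and array row formed it. Leaving out 1 array at a time, it passed in 8 of 24 fits, those without HFD_O3 1, 2, 4, 7 or 8, HFD_Cont 6, or STD_Cont 2 or 6. Without STD_Cont 3 it was −0.31 (limma adjusted p = 0.0922).
Erlin1 and Erlin2, partners in a complex of the endoplasmic reticulum that takes part in protein degradation there, had higher means in HFD_Cont and missed the threshold. The Erlin1 difference between HFD_Cont and STD_Cont was 0.19 ± 0.06 (limma adjusted p = 0.0676), with 8 of 8 HFD_Cont arrays above the STD_Cont median, and its other kept probe gave 0.01. For Erlin2 the difference was 0.23 ± 0.07 (limma adjusted p = 0.0805), also with 8 of 8. In the comparisons of HFD_O3 with HFD_Cont and with STD_Cont, 0 of 11 of these genes passed.

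Genes of cholesterol uptake, efflux and storage held 2 calls among 14 measured, both lower in HFD_Cont than in STD_Cont, where 2.91% of all names were called. Npc1, which encodes the protein that moves cholesterol out of lysosomes, had levels of 4.17, 4.36 and 4.68 in HFD_Cont muscle and 4.58, 5.09 and 5.41 in STD_Cont muscle. All 8 HFD_Cont arrays lay below the STD_Cont median, with an overlap at the ends of the ranges. Npc1 fell by 0.65 ± 0.14 log2 units (limma adjusted p = 0.0177). Its other kept probe fell by 0.68 (limma adjusted p = 0.0309), and the difference was −0.83, −0.64 and −0.50 within slides 1, 2 and 3.
Abca1, the transporter that hands cholesterol to apolipoproteins, had levels of 1.26, 1.56 and 1.83 in HFD_Cont muscle and 1.77, 1.99 and 2.43 in STD_Cont muscle. Here too 8 of 8 HFD_Cont arrays lay below the STD_Cont median, and the highest HFD_Cont array passed the lowest STD_Cont array. Abca1 fell by 0.45 ± 0.10 log2 units (limma adjusted p = 0.0171), with −0.58, −0.52 and −0.22 within slides 1, 2 and 3. The Npc1 and Abca1 calls passed in 24 of 24 fits in which a single array was left out. When slide and array row formed the block, Npc1 differed by −0.58 (limma adjusted p = 0.167) and Abca1 by −0.43 (limma adjusted p = 0.114), and neither passed. Without the 7 arrays of white adipocyte score over 0.5, Npc1 differed by −0.57 (limma adjusted p = 0.336) and Abca1 by −0.49 (limma adjusted p = 0.285). None of the 19937 names passed with those arrays left out.
Between HFD_O3 and HFD_Cont, 0 of 14 of these genes passed. Npc1 averaged 4.74 ± 0.40 in HFD_O3 and 4.41 ± 0.18 in HFD_Cont (SD, n = 8 each), a difference of 0.33 ± 0.14 (limma adjusted p = 0.666) that was −0.04 within slide 2 and 0.15 on its other kept probe. Between HFD_O3 and STD_Cont, 0 of 14 passed, and Abca1 differed by −0.29 ± 0.10 (limma adjusted p = 0.205). Npc1 differed by −0.33 ± 0.14 (limma adjusted p = 0.371), and by −0.45 without HFD_O3 7 (limma adjusted p = 0.0406), while within slide 3 the sign turned (0.32) and the other kept probe gave −0.52 (limma adjusted p = 0.176).
In the isoprenoid branch, which leads to ubiquinone, dolichol and prenylated proteins, 8 of 8 genes were measured and 0 passed in each comparison. The smallest p of the branch belonged to Dhdds, a subunit of the enzyme that makes dolichol chains, with 0.20 ± 0.12 for HFD_O3 against HFD_Cont (limma adjusted p = 0.750), and 0.11 on its other kept probe. The member lists and these lists were drawn up with earlier results of the same arrays known, so their counts are descriptions.

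Likeness to the members was then read across all genes, as a description. The mean of the 8 members' standardised deviations was set against every other gene name over the 24 arrays, where the median Pearson r of the 19873 other names with a value on every array was 0.05 and the middle 50% lay between −0.13 and 0.24. Among the 10 highest were Hps6 at 0.78, Cyp2f2 at 0.74, and BC055308, Slc36a2, Tmem267, Fbxl22 and Sesn2 at 0.71 to 0.69. Among the sterol enzymes outside the members, 13 of 13 had a positive r with a median of 0.42. For genes of SREBP control 7 of 11 were positive (median 0.22), for uptake, efflux and storage 10 of 14 (median 0.08), and for the isoprenoid branch 3 of 8 (median −0.02), where 57.3% of all names were positive. All points come from the same 24 arrays and share their scaling, and the members' mean had itself an r of 0.48 with the white adipocyte score and 0.39 with the Schwann cell score.

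**Figure D4:**
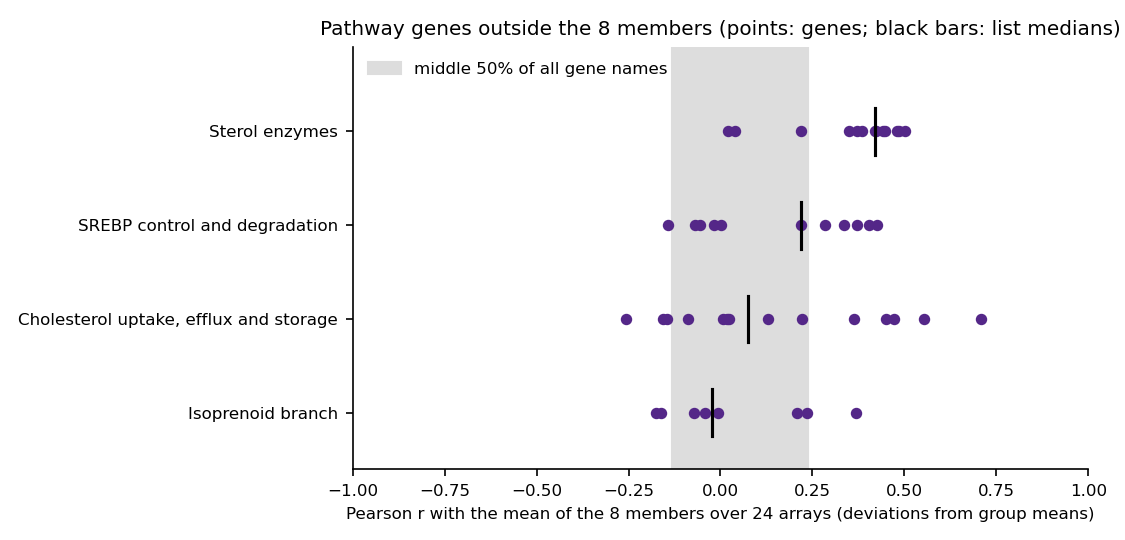
Pearson r of each pathway gene (points) with the mean of the 8 cholesterol synthesis genes over 24 arrays, after subtracting group means, for 4 gene lists (rows) with list medians as black bars. The grey band holds the middle 50% of all gene names (−0.13 to 0.24) and the sterol enzymes have a median of 0.42.

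Cell type marker levels varied between arrays, and 2 members were correlated with the white adipocyte or the Schwann cell markers. Marker scores were taken as the mean log2 level of a marker list relative to all arrays, for white adipocytes (10 genes such as Adipoq and Plin1) and for Schwann cells (8 genes, among them Mbp), the myelinating cells of nerve. All markers of both lists were measured on all 24 arrays. The white adipocyte score averaged −0.22 ± 0.90 in HFD_O3, 0.34 ± 0.75 in HFD_Cont and −0.12 ± 0.73 in STD_Cont (SD, n = 8 each). The summed signal of the adipocyte markers ran from 242 to 491 times the 75th percentile in HFD_O3, 255 to 660 in HFD_Cont and 283 to 568 in STD_Cont. Its median was 324 in HFD_O3, 309 in HFD_Cont and 367 in STD_Cont, so the score and the sum ranked the groups differently. For HFD_Cont against STD_Cont the 10 markers had a median log2 change of 0.43. Of them 0 were called higher and 1 lower, against 2.91% of all names called. The Schwann cell score averaged −0.20 ± 0.16 in HFD_O3, 0.02 ± 0.48 in HFD_Cont and 0.18 ± 0.41 in STD_Cont (SD, n = 8 each), with summed signals of 17.8 to 32.9 in HFD_O3, 20.2 to 82.6 in HFD_Cont and 17.9 to 78.8 in STD_Cont. Scores for muscle, macrophage, endothelial, fibroblast and erythroid markers were also taken but not set against the members. Of these, the endothelial score averaged 0.09 ± 0.07 in HFD_O3, 0.01 ± 0.11 in HFD_Cont and −0.10 ± 0.10 in STD_Cont. The erythroid score averaged −0.15 ± 0.24, −0.01 ± 0.22 and 0.16 ± 0.24 in the same order (SD, n = 8 each).
Of 16 relations between a member and a score, tested over 24 arrays as deviations from group means by permutation with Benjamini-Hochberg adjustment, 2 passed. Hmgcs1 was correlated with the white adipocyte score, with Pearson r = 0.66 (permutation p = 0.00089, adjusted p = 0.0142) and Spearman rho = 0.65 (adjusted p = 0.0234). It was 0.46 without HFD_O3 4 and HFD_Cont 4, and 0.36, 0.89 and 0.12 within slides 1, 2 and 3. Sqle was correlated with the Schwann cell score, with r = 0.63 (permutation p = 0.0049, adjusted p = 0.0392) and rho = 0.58 (adjusted p = 0.0450). It was 0.46 without HFD_Cont 8 and STD_Cont 3, and 0.22, 0.85 and 0.84 within slides 1, 2 and 3. The part of cell content in the differences between groups was not tested beyond these covariates. With the Schwann cell score as a covariate the Sqle difference between HFD_Cont and STD_Cont was 0.66 (limma adjusted p = 0.0175), and with the white adipocyte score it was 0.52 (limma adjusted p = 0.102).

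**Figure D5:**
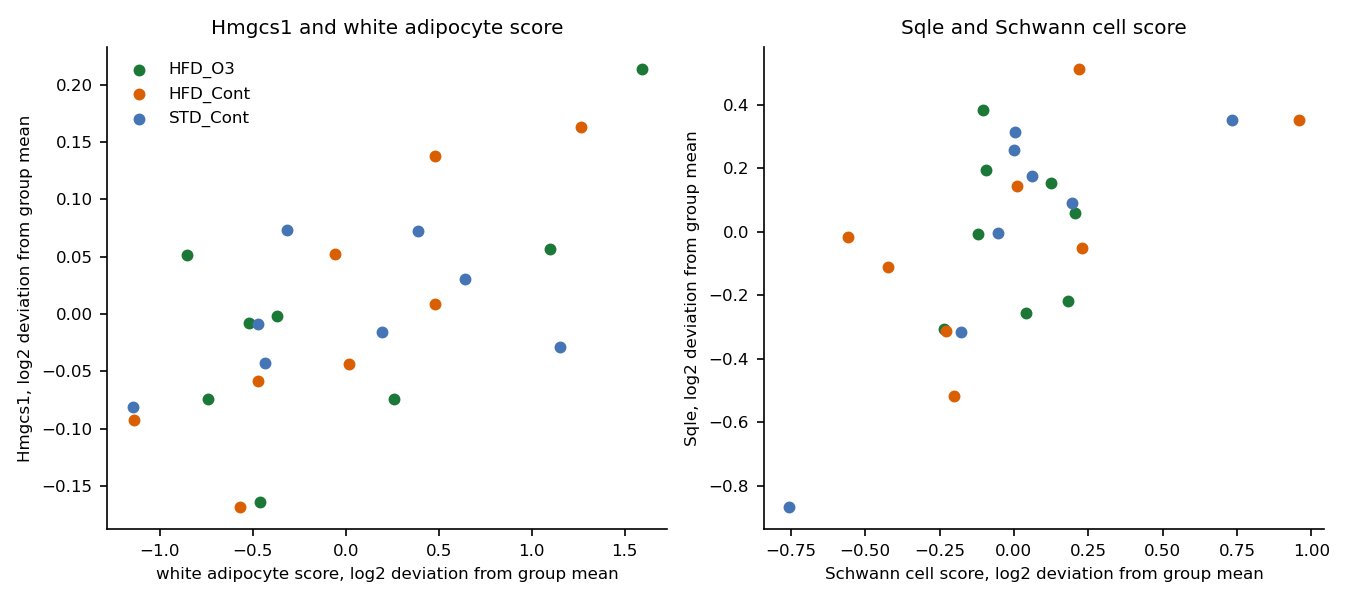
Deviation of Hmgcs1 from its group mean against the white adipocyte score (left) and of Sqle against the Schwann cell score (right), both in log2 units, on 24 arrays (points, coloured by group). Pearson r is 0.66 on the left and 0.63 on the right, where STD_Cont 3 lies lowest on both axes.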

How the data were processed

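Per the labels' protocols, total RNA of 24 mouse muscle samples was labelled with Cy3 and hybridised to single-colour Agilent arrays. The deposited scanner files hold spot intensity, background-subtracted and detrended by Agilent Feature Extraction 10.10.1.1 per the file headers, with probe coordinates on mm9. The deposited value table of 30124 probes holds log2 values. For it, limma is named without a version, per the submitters' processing notes, and its other steps are unknown here.

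Flagged and control spots were dropped, the remaining spots of each probe averaged, and each array's 75th percentile was subtracted from its log2 processed intensity. Of 56605 probes, 29245 were kept, those well above background on 6 or more of the 8 arrays in any group. The brightest kept probe stood for each of 19937 gene names, and the test of single probes ran over all 29245. All 24 arrays entered 1 unblocked fit in limma 3.58.1 (R 4.3.3, functions lmFit and eBayes, two-sided). Its p-values were Benjamini-Hochberg adjusted over the 19937 names, with calls at 0.05. The labels do not say which replicate numbers were handled together, so the p-values measure the spread between these samples.

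The members, gene lists, tests and most settings were chosen with earlier results of these data known. Named were all members, every gene of the 4 pathway lists past the threshold, otherwise the 3 smallest p values of a list in a comparison, and the 10 names most like the members' mean; the text gives a selection. Correlations over samples used 100000 permutations. The fits were tested on simulated data with known changes. Other settings were normexp (offset 50), quantile and median scaling, the deposited table, other probe filters and probe rules, slide, slide and row, or replicate number as a block, each slide alone, array weights, robust variance with a trend, only the 2 groups compared, marker scores as covariates, arrays left out for a white adipocyte score over 0.5, HFD_O3 1 and 7 left out, and each array left out in turn. Both scores together as covariates were added after seeing the data. Sequences come from the scanner files and from RefSeq (GRCm38.p6). Plots were made in matplotlib 3.10.9 from tables read by pandas 2.3.3.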

Additional observations from a re-analysis of the deposited data

Results flagged for a closer look

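In each of the 24 combinations of a member and a group, the gap between an extreme array and its neighbour was compared with the range of the 8 arrays, and 3 arrays lay beyond Dixon's 95% limit, where chance gives about 1 in 20. All 3 belonged to STD_Cont. For Insig1, STD_Cont 1 was the highest array of its group at −0.34. For Lss, STD_Cont 5 was the highest at −0.23, read on the probe whose values the other Lss probe does not share. For Idi1, STD_Cont 6 was the lowest at 0.75.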

How the results depend on the processing

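The counts of members past the threshold were 0 in all 3 comparisons. For HFD_Cont against STD_Cont the count was 1, Sqle each time, with quantile normalization, with the deposited value table, with array weights, without HFD_O3 1 and 7 together, with the Schwann cell score as a covariate, and with both scores as covariates, a setting added after seeing the data. Leaving out 1 array at a time gave counts of 0 to 1. The other 2 comparisons stayed at 0 in the settings run. The members' median change moved in slide 2 alone, to 0.064 for HFD_Cont against STD_Cont, −0.079 for HFD_O3 against HFD_Cont and 0.11 for HFD_O3 against STD_Cont. Insig1 and Sqle have no value when probes must be well above background on all 24 arrays.

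Signs turned for differences that were not past the threshold in the reported fit. For HFD_Cont against STD_Cont, Hmgcs1 was −0.047 and Srebf2 −0.00097 in slide 1 alone, and Cyp51 was −0.16 and Srebf2 −0.049 in slide 3 alone. With slide and row as a block, Cyp51 was −0.0035 and Hmgcs1 −0.011, and without arrays of white adipocyte score over 0.5, Hmgcs1 was −0.0031 and Srebf2 −0.019. Between HFD_O3 and HFD_Cont, Cyp51 was 0.014 with the Schwann cell score, 0.0065 with array weights, 0.015 with both scores, 0.012 with median scaling, 0.014 in slide 1 and 0.036 without the adipocyte-rich arrays. In the same comparison Srebf2 was 0.015 with array weights, 0.18 on its other probe, 0.084 as the mean of its probes, 0.018 with median scaling, 0.012 in slide 2, 0.019 in slide 3, 0.015 without the adipocyte-rich arrays and 0.021 without HFD_O3 1 and 7. Fdft1 was −0.20 in slide 1, Idi1 −0.055 in slide 2 and −0.018 in slide 3, and Insig1 −0.12 and Npc1 −0.037 in slide 2. For HFD_O3 against STD_Cont, Hmgcs1 was 0.0022 with the Schwann cell score, 0.0028 with both scores, 0.012 in the deposited table, 0.0029 with median scaling, 0.00019 with quantile normalization, 0.0090 without HFD_O3 1 and 7, and 0.10 in slide 2. Srebf2 was −0.080 in slide 1, −0.030 in slide 3 and −0.0046 without the adipocyte-rich arrays, and Cyp51 −0.0097 with slide and row as a block. In slide 3, Cyp51 was −0.20, Fdft1 0.16, Insig1 0.17, Mvd −0.15 and Npc1 0.32.
Leaving out 1 array at a time also turned signs. For HFD_Cont against STD_Cont, Srebf2 ran from −0.0034 to 0.054. Between HFD_O3 and HFD_Cont, Cyp51 ran from −0.085 to 0.035, Fdft1 from −0.0085 to 0.15 and Srebf2 from −0.046 to 0.027. For HFD_O3 against STD_Cont, Hmgcs1 ran from −0.050 to 0.0038 and Srebf2 from −0.016 to 0.047. The cause was not tested.

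With the replicate number as a block no call of a member or named gene changed, and Sqle was 0.57 (limma adjusted p = 0.0585) for HFD_Cont against STD_Cont. Same-numbered arrays had correlations of −0.13 to 0.37 in that comparison, with 2 of 8 over 0.1. Their median was 0.06, against −0.02 for arrays of other numbers. Such correlations cannot tell whether same-numbered samples were handled together, and the labels do not say.

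The Mylip call was lost with median scaling, no filter on dim probes, normexp, slide as a fixed block and the adipocyte score as a covariate, and with both scores, while its difference stayed between −0.38 and −0.36. Mylip, Abca1 and Npc1 all lost their calls with slide and row as a block (−0.37, −0.43 and −0.58), in each slide alone and without the adipocyte-rich arrays. Without those arrays Mylip differed by −0.42, Abca1 by −0.49 and Npc1 by −0.57, with fewer arrays in the fit. Over all names, the 581 calls for HFD_Cont against STD_Cont became 177 with median scaling, 135 with no filter, 73 with slide and row as a block, 0 in each slide alone and 0 without the adipocyte-rich arrays. They became 305 with both scores, 1166 with only the 2 groups, 1186 with array weights and 1238 without HFD_O3 1 and 7, and ran from 182 without STD_Cont 1 to 977 without HFD_O3 7. The 119 calls for HFD_O3 against STD_Cont became 62 with median scaling, 46 with no filter, 47 with slide and row, 36 with only the 2 groups, 32 with the Schwann cell score, 36 with both scores, 0 in each slide alone and 0 without the adipocyte-rich arrays, and ran from 68 to 343 with 1 array left out. HFD_O3 against HFD_Cont gave 0 to 1, the 1 without HFD_Cont 3. No scaling moved the median of all names by over 0.1. Dim signal limits Insig1 and Sqle, whose probes were not well above background on every array.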
